A study of Homo sapiens with 24 samples.

Results

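AP-1 is a dimeric transcription factor built from FOS-family and JUN-family proteins, and the genes of its subunits, together with EGR1, IER2 and IER3, are among the first that cells transcribe after a stimulus. The symbols FOS, FOSB, FOSL1, FOSL2, JUN, JUNB, JUND, EGR1, IER2 and IER3 were looked up in the first column of the deposited expression table, split at commas. Of these 10 symbols 9 had an entry of their own among 25541 entries, none of them merged with another gene, and IER3 is not analysed here. Entries were picked by symbol alone, but the list of symbols was chosen with earlier results of these data known.

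RNA sequencing had been done on total RNA from cultured cells of T47D, a luminal breast cancer line. T47D-Y is labelled PR null, that is, without progesterone receptor, and T47D-co is labelled PR-positive. Each line first received interferon-alpha (IFN) at 20 IU/ml or water for 18 hours, then R5020, a synthetic progestin that activates the progesterone receptor, at 10 nM or its solvent ethanol (EtOH) for 6 hours. The 8 groups thus ran from T47D-Y EtOH water to T47D-co R5020 IFN, with 3 biological replicates each and 24 libraries in all. All cells were grown in MEM with serum and insulin, and the lines are single derivatives of 1 tumour line, so the receptor and other differences between them cannot be told apart.

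FOS-family proteins (FOS, FOSB, FOSL1 and FOSL2) cannot pair with each other and bind DNA with a JUN partner, whereas JUN, JUNB and JUND can also pair among themselves. The dimers bind short sites named TRE and CRE. FOS, EGR1 and IER2 messages typically rise within minutes of a growth factor or stress, through serum response factor and its kinase-driven partners on CArG boxes, and fade soon after, while FOSL1, FOSL2 and JUND are held at steadier levels. In breast cells the progesterone receptor is known both to bind DNA itself and to work through AP-1, and the samples here were taken hours after R5020, past the usual first wave.

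In the files, on hg19, FOS lies at chr14:75745476-75748933, FOSL1 at chr11:65659519-65668044, JUN at chr1:59246464-59249785, JUND at chr19:18390562-18392432 and EGR1 at chr5:137801178-137805004, each alone at its locus. The other members share a locus over which the authors' software divided fragments. FOSL2 (chr2:28607275-28640179) shares with the non-coding AC104695.3 and held 96.8 to 99.1% of the fragments there. IER2 (chr19:13261228-13265722) shares with CTC-250I14.6 and held 78.4 to 87.4%. JUNB (chr19:12873816-12985765) held 10.3 to 17.0% of a locus with RNASEH2A, MAST1, CTD-2659N19.10 and a merged entry that includes HOOK2 and PRDX2. FOSB (chr19:45882891-45982086) held only 0.277 to 0.824% of a locus with ERCC1, PPP1R13L and CD3EAP, so its values depend most on that division.

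Promoter sequence was at hand for 8 of the 9 members. The 250 bases upstream of the RefSeq start (build GRCh38.p14, printed 5′ to 3′ on the gene's strand) are shown for 6 of them. Searched motifs are in capitals, and the windows of JUNB and JUND are not printed.
FOS, chr14:75278578-75278827, plus strand: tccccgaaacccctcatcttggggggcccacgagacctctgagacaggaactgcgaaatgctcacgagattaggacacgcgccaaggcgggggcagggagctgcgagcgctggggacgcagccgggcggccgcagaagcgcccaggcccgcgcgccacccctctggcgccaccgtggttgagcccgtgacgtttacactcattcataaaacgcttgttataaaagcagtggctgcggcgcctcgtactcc
FOSB, chr19:45467746-45467995, plus strand: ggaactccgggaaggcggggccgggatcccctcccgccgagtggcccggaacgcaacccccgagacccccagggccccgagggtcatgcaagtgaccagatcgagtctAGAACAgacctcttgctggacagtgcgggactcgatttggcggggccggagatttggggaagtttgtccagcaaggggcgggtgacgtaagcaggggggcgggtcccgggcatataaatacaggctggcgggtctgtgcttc
FOSL2, chr2:28392608-28392857, plus strand: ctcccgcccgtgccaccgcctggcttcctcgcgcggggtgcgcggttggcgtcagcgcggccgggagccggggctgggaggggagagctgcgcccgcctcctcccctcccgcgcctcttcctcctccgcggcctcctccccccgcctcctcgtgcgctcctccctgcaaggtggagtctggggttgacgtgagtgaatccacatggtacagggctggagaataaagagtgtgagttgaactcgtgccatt
JUN, chr1:58784048-58784297, minus strand: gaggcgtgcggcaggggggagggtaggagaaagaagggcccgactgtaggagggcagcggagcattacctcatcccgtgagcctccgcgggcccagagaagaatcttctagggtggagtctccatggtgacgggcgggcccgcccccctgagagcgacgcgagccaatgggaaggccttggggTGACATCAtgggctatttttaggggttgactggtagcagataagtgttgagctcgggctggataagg
EGR1, chr5:138465229-138465478, plus strand: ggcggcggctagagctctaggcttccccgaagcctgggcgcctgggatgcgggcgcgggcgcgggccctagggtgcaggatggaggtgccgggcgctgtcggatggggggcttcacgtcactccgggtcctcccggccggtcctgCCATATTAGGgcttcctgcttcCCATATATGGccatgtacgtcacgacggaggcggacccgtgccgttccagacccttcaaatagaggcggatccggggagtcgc
IER2, chr19:13150161-13150410, plus strand: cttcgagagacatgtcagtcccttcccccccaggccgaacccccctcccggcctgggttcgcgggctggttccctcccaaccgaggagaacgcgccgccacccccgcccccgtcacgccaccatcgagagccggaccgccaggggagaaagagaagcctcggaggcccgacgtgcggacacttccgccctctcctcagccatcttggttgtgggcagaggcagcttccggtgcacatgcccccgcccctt

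The motifs searched on both strands were the CRE (TGACGTCA), the TRE (TGANTCA), the variant CRE known from the JUN promoter (TGACATCA), the CArG box, the core of the palindromic progesterone response element (ACANNNTGT), its half-site (AGAACA) and the core of the interferon-stimulated response element. The half-site and the palindrome core can overlap in the letters ACA. EGR1 held 2 CArG boxes, at -105 to -96 and -83 to -74 from its start, a motif found in 1.14% of 27305 RefSeq promoters. JUN held TGACATCA at -67 to -60 (2.45% of promoters), JUND held TGACGTCA at -200 to -193 (1.77%), and FOSB held AGAACA at -142 to -137 (12.4%). In the windows of FOS, FOSL2, JUNB and IER2 no searched motif was matched. For EGR1, JUNB and IER2 the bases that follow the RefSeq start were found in no GENCODE v29 transcript of the gene. The windows and positions of those genes therefore rest on the RefSeq start alone. The remaining motifs occurred in 6.6% (TRE), 4.68% (palindrome core) and 3.07% (interferon element core) of promoters and in no member's window.

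Levels are given as scaled fragments, the estimated fragments of a gene in a library after 1 scaling common to all 24 libraries. Depth was 14141316 to 33607490 estimated fragments per library (median 18385811), and libraries of a group correlated at 0.9826 to 0.9876. PGR, the progesterone receptor gene, was far lower in the line labelled PR null but not absent from it: it lay between 418.3 and 719.1 scaled fragments in the T47D-Y libraries and between 11806 and 27957 in those of T47D-co. Mitochondrial transcripts took 0.942 to 1.07% of fragments in 4 libraries (T47D-Y EtOH water replicate 1, T47D-Y R5020 water replicates 1 and 2, T47D-co EtOH water replicate 2) and 3.17 to 4.74% in the other 20, and results on water libraries were recomputed without those 4. Luminal markers were abundant (7 of 8 with an entry, summed level 58591 to 100512), with all the T47D-co libraries given R5020 at 58591 to 64205 and all others at 88806 or above. Of the basal list 2 of 4 had an entry: TP63 was 163 to 237 in T47D-Y and 6.14 to 48.1 in T47D-co, and KRT5 was 199 to 278 in T47D-co given R5020 and at most 3.77 elsewhere. COL1A1, the 1 fibroblast marker of 5 with an entry, was 154 to 233 in T47D-Y and 285 to 473 in T47D-co. Endothelial CDH5 (1 of 4 with an entry) stayed at or below 7.44, and of the blood list (5 of 6) PTPRC, CD3E and LYZ stayed below 10 in each library while HBB ran from 0 to 653. The part of these markers in the results was not tested.

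R5020 shifted the AP-1 genes of T47D-co in both directions. FOS, FOSL2, JUN and JUND rose, and FOSB, EGR1 and IER2 fell, while FOSL1 and JUNB did not pass the test. That is 7 of 9 members called in the comparison of R5020 with EtOH among water-treated cells, where 56.5% of the 20162 entries tested were called as well, so the share of members was not far from that of all genes. Calls are at a Benjamini-Hochberg adjusted p under 0.05 from limma's moderated test over all entries. As bulk RNA was measured, fewer cells with a transcript and less of it per cell cannot be told apart. The 7 calls also stood without the 4 libraries of low mitochondrial share.

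**Figure D1:**
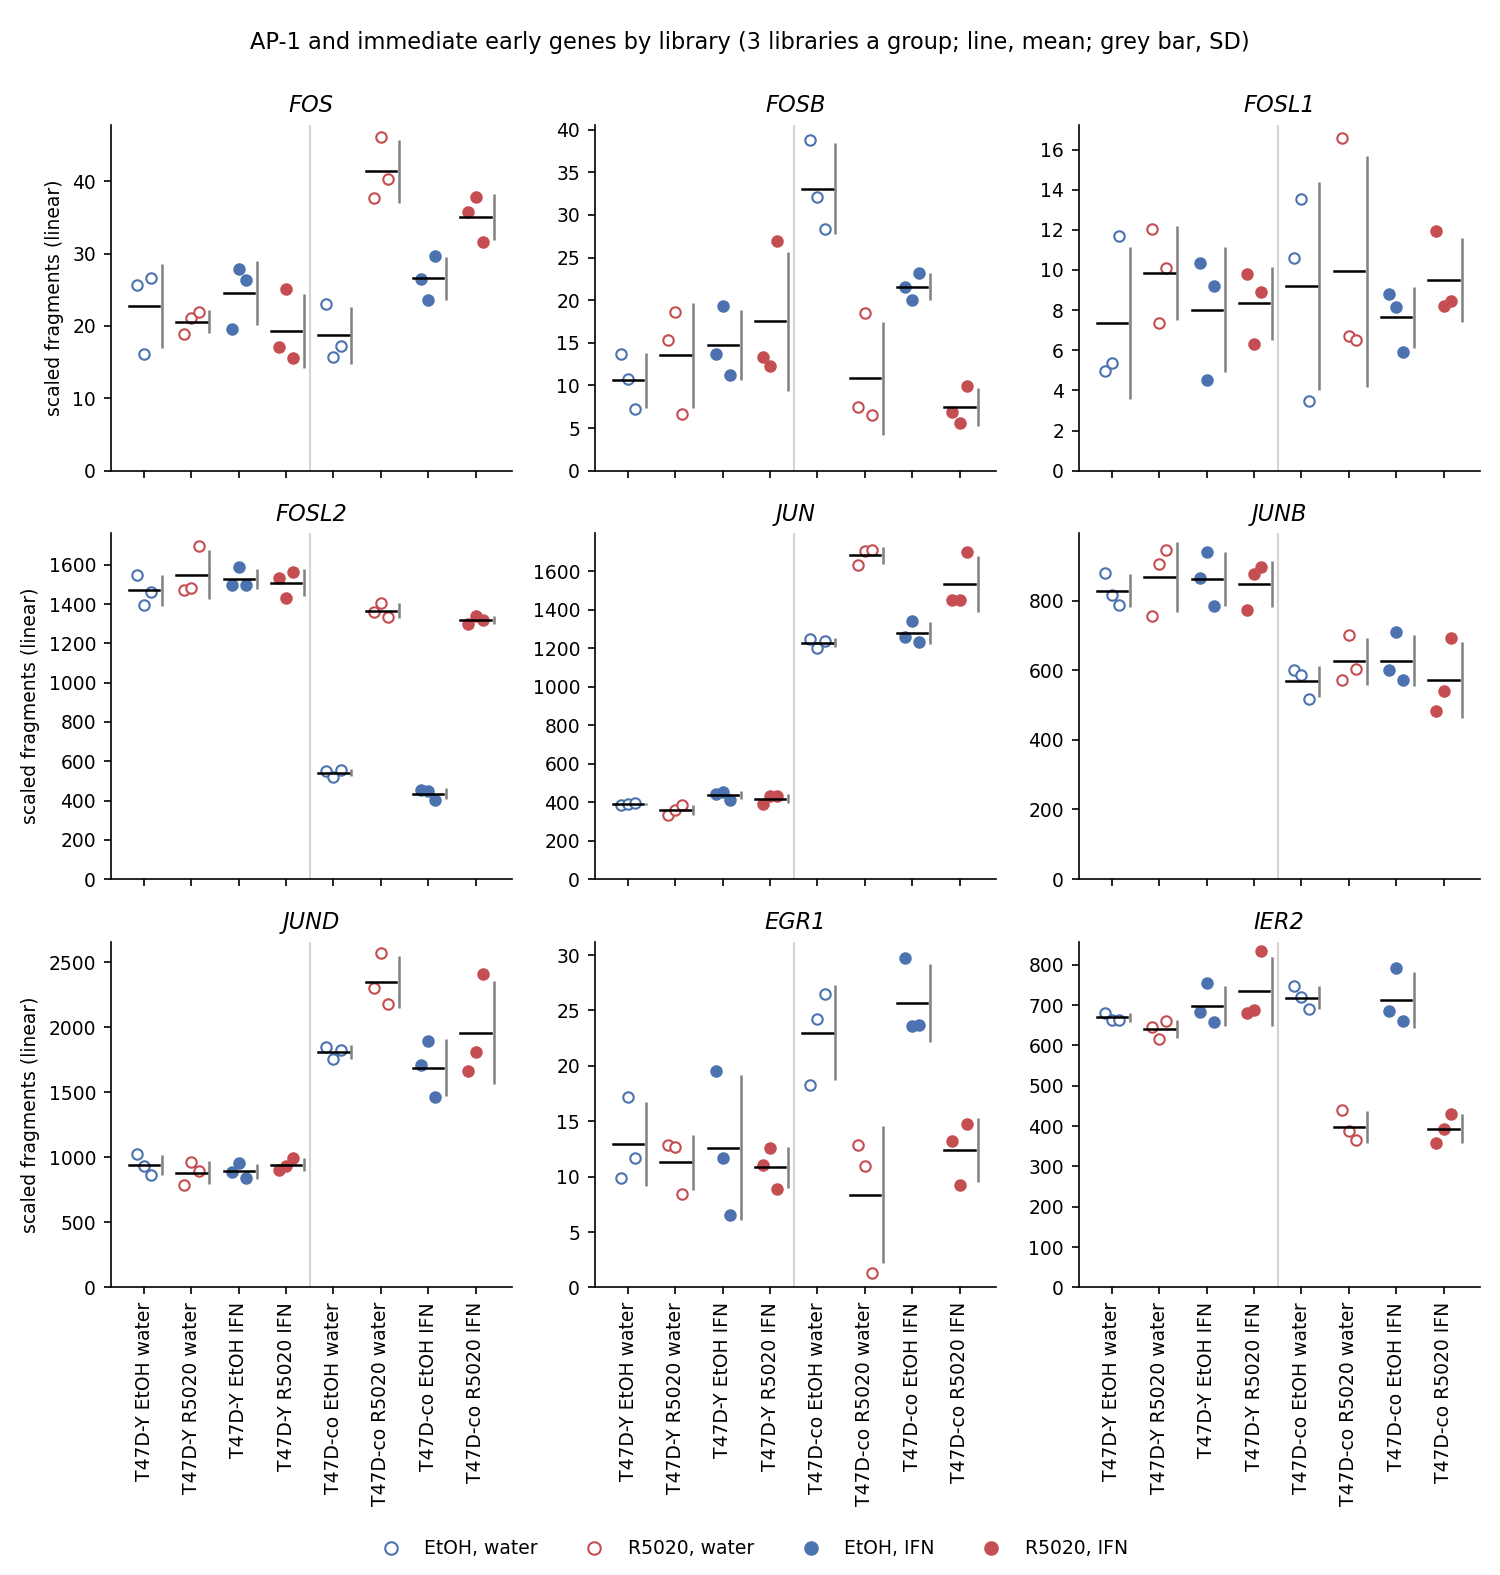
Scaled fragments (linear axis from 0) of the 9 members in each of 24 libraries, by group, with open points for water, filled points for IFN, blue for EtOH and red for R5020; black lines are group means and grey bars SD (n = 3). In T47D-co the R5020 libraries of FOSL2 sit at 1301 to 1408, above the EtOH libraries at 401.2 to 553.1, and those of IER2 at 357.3 to 440.6, below 659.5 to 792.5.

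FOSL2, which encodes the FOS-related subunit FRA-2, gave the most precise rise. Its levels were 550.8, 519.9 and 553.1 scaled fragments in T47D-co EtOH water and 1360, 1408 and 1334 after R5020. All R5020 libraries lay far above all EtOH libraries. The difference was 1.34 ± 0.05 (SE, n = 3 per group) on the log2 scale, a 2.52-fold rise (adjusted p = 5.6e-17). With IFN the levels went from 451.5, 448 and 401.2 to 1301, 1338 and 1321, a log2 difference of 1.61 ± 0.05 (adjusted p = 1.12e-18). In the order of the 8 groups the 4 T47D-Y groups came first, at means of 1551 (R5020 water), 1528 (EtOH IFN), 1510 (R5020 IFN) and 1470 (EtOH water), followed by T47D-co R5020 water at 1368 and R5020 IFN at 1320. These 6 each overlapped with the next in order, whereas T47D-co EtOH water at 541.3 and EtOH IFN at 433.6 stood below without overlap.

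FOS itself, the founding member of the family and the classic transient early gene, was scarce, with 14 to 55 estimated fragments per library. T47D-co EtOH water libraries held 23.1, 15.7 and 17.28 scaled fragments and R5020 libraries 37.74, 46.19 and 40.29. No library of either group fell within the range of the other, and FOS rose by 1.12 ± 0.23 log2 units (2.17-fold, adjusted p = 0.000202). With IFN the values were 26.47, 23.61 and 29.64 in EtOH and 35.8, 37.84 and 31.66 in R5020, again without overlap, but the log2 difference of 0.39 ± 0.23 did not pass the test (adjusted p = 0.157). T47D-co R5020 water and R5020 IFN were the highest groups, overlapping each other and separate from the remaining 6, which overlapped one with the next at means of 18.69 to 26.57.

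FOSB, whose product resembles FOS and which is known for long-lived splice forms in neurons, moved the other way. Its T47D-co EtOH water libraries were at 38.82, 32.12 and 28.35 scaled fragments and its R5020 libraries at 7.505, 18.49 and 6.537. Replicate 2 of the R5020 group was the highest of that group but still below each EtOH library. FOSB fell by 1.65 ± 0.39 on the log2 scale (adjusted p = 0.000792), and by 1.44 ± 0.39 with IFN (adjusted p = 0.00269), where the levels were 21.59, 19.97 and 23.17 against 6.838, 5.642 and 9.962. Of its 3 neighbours at the locus ERCC1 (-0.56 ± 0.06) and PPP1R13L (-0.61 ± 0.05) were called lower with water, CD3EAP (-0.21 ± 0.10, adjusted p = 0.0945) was not, and all entries of the locus summed gave -0.55 with water and -0.58 with IFN. How much of FOSB's value comes from fragments of these genes was not tested.

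FOSL1, encoding FRA-1, was scarce, at 3 to 19 estimated fragments per library. Its 8 group means spanned 7.346 (T47D-Y EtOH water) to 9.928 (T47D-co R5020 water) scaled fragments and each group overlapped the next. The R5020 difference in T47D-co was 0.15 ± 0.45 with water and 0.28 ± 0.45 with IFN (95% intervals -0.78 to 1.07 and -0.64 to 1.21), wide ranges at this depth. FOSL1 was called in none of the 17 comparisons.

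JUN, the main partner of FOS and a target of its own protein through a variant CRE, the letters of which are printed above, rose in T47D-co. Levels were 1247, 1201 and 1239 scaled fragments in EtOH water and 1633, 1707 and 1710 in R5020 water, without overlap. The log2 difference was 0.45 ± 0.06 (1.37-fold, adjusted p = 4.56e-07). With IFN they were 1256, 1341 and 1234 against 1449, 1452 and 1700, a rise of 0.26 ± 0.06 (adjusted p = 0.000629). Replicate 3 of the R5020 IFN group stood above its 2 companions.

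JUND, a JUN-family member usually present in resting cells, had 1847, 1752 and 1828 scaled fragments in T47D-co EtOH water and 2303, 2567 and 2178 with R5020. It rose by 0.37 ± 0.10 log2 units (1.30-fold, adjusted p = 0.0033). With IFN the groups overlapped, at 1708, 1896 and 1464 in EtOH and 1662, 1808 and 2406 in R5020, and the difference of 0.20 ± 0.10 did not pass (adjusted p = 0.0983). That call turns on single libraries: it reached an adjusted p of 0.0165 without T47D-co R5020 IFN replicate 1 (0.31) and 0.0309 without T47D-co EtOH IFN replicate 2 (0.29).

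JUNB, which often opposes JUN on shared sites, was close to level. Its T47D-co libraries were at 600.4, 586.6 and 517.8 scaled fragments in EtOH water, 572.1, 702.2 and 603.9 in R5020 water, 601.9, 709.4 and 571.2 in EtOH IFN, and 483.1, 539.9 and 693.3 in R5020 IFN. All 4 groups overlapped. R5020 gave 0.14 ± 0.11 with water and -0.14 ± 0.11 with IFN, the latter called when R5020 IFN replicate 3 was left out (-0.29, adjusted p = 0.0218) and when all entries of the locus were summed (-0.13, adjusted p = 0.0104).

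EGR1, a zinc-finger factor known to be driven through CArG boxes, of which its printed window holds a pair, was also scarce. T47D-co EtOH water libraries had 18.28, 24.26 and 26.5 scaled fragments and R5020 libraries 12.89, 10.92 and 1.3, the last of these a single fragment. The groups did not overlap and EGR1 fell by 1.71 ± 0.47 (adjusted p = 0.00303). Without that replicate 3 the fall was smaller, at -0.88, and close to the threshold (adjusted p = 0.0454). With IFN the values were 29.78, 23.61 and 23.71 in EtOH and 13.26, 9.204 and 14.77 in R5020, again apart, at -1.01 ± 0.47 (adjusted p = 0.0693), which passed with a pseudocount of 5, with voom weights and in a fit of the compared groups alone (adjusted p = 0.0237, 0.0237 and 0.0123).

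IER2, a short early-response gene whose product acts as a transcriptional regulator, had 747, 719.2 and 690.3 scaled fragments in T47D-co EtOH water and 440.6, 386.7 and 365.4 with R5020. It fell by 0.86 ± 0.08 on the log2 scale (adjusted p = 1.74e-09). With IFN the fall was 0.85 ± 0.08 (adjusted p = 1.83e-09), from 685.5, 792.5 and 659.5 to 357.3, 393.1 and 431.1. The non-coding CTC-250I14.6 at the same locus was also called lower (-0.69 ± 0.24 with water), and the locus as a whole gave -0.81. Both R5020 groups of T47D-co lay apart from and below the other 6 groups, whose means were 640.8 to 733.8.

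With IFN present, R5020 gave 4 of 9 calls in T47D-co (FOSL2 and JUN higher, FOSB and IER2 lower), beside 58.2% of all entries. Whether IFN altered the R5020 effect was tested directly: in T47D-co 0 of 9 members were called by limma (3 at an unadjusted p under 0.05, 0 with voom weights), beside 1.01% of all entries. The closest was FOSL2 at 0.27 ± 0.08 (adjusted p = 0.0878), and FOS, called with water alone, differed by -0.73 ± 0.33 (adjusted p = 0.286). So the loss of the calls of FOS, JUND and EGR1 with IFN is not a shown difference.

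In T47D-Y no member passed the test for R5020. With water 0 of 9 were called by limma, and 0 had an unadjusted p under 0.05, beside 0.218% of all entries. With IFN the counts were 0 and 0, beside 0.298%, and voom weights also gave 0 in both. The abundant members were tightly bounded: the 95% interval of the R5020 difference with water was -0.04 to 0.19 for FOSL2, -0.23 to 0.11 for IER2 and -0.31 to 0.12 for JUND. Neither JUN nor IER2 was called, and their groups did not overlap with water. How many of all entries separate this way was not counted, so no response is read from it. JUN was at 386.8, 390.4 and 394.7 in EtOH water and 333.3, 361.2 and 383.7 in R5020 water, at -0.12 ± 0.06. IER2 had means of 669.4 and 640.8, at -0.06 ± 0.08. For the scarce FOS, FOSB, FOSL1 and EGR1 the intervals were wide, from -0.59 to 0.37 for FOS and from -1.14 to 0.80 for EGR1.

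**Figure D2:**
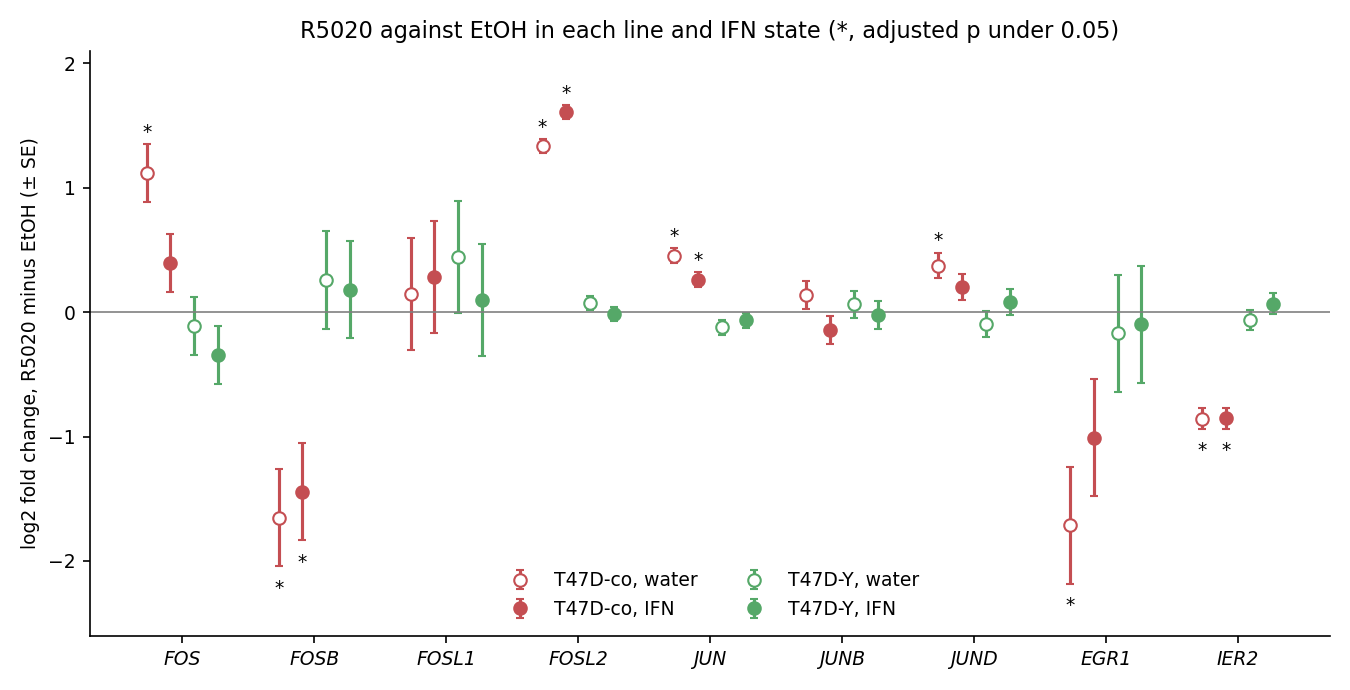
Log2 fold change of R5020 against EtOH (points, with SE bars, n = 3 libraries per group) for the 9 members in T47D-co (red) and T47D-Y (green), with water (open) or IFN (filled); stars mark adjusted p under 0.05. FOSL2 stands at 1.34 and 1.61 and IER2 at -0.86 and -0.85 in T47D-co, and no T47D-Y point is starred.

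The difference in R5020 effect between the lines was itself called for 6 of 9 members with water, beside 44.6% of all entries: FOS, FOSL2, JUN and JUND changed more upward in T47D-co, FOSB and IER2 more downward. With IFN it was called for FOSB, FOSL2, JUN and IER2 (4 of 9, beside 46.0%). FOSL2 gave 1.26 ± 0.08 and 1.62 ± 0.08, and IER2 -0.79 ± 0.12 and -0.92 ± 0.12. EGR1 gave -1.54 ± 0.66 with water (adjusted p = 0.0628) and passed with a pseudocount of 5 or voom weights (adjusted p = 0.0489 and 0.0422). Without the 4 libraries of low mitochondrial share, which leave T47D-Y R5020 water with 1 library assumed to vary like the others, the calls of FOS (0.94), FOSB (-1.30) and JUND (0.36) ended. With IFN, FOSB's call ended without T47D-Y R5020 IFN replicate 3 (-1.28, adjusted p = 0.0692), and FOS, at 0.74 ± 0.33, gained one without T47D-Y EtOH IFN replicate 1 (0.89) or T47D-Y R5020 IFN replicate 2 (0.94). In T47D-Y the R5020 effect with IFN against that with water was called for 0 members by limma (0 at an unadjusted p under 0.05, 0 with voom weights), beside 0.00% of all entries.

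Without R5020 the lines also differed in members of this set, in a share no larger than that of all entries. Comparing T47D-co with T47D-Y in EtOH and water, JUN, JUND and FOSB were higher and FOSL2 and JUNB lower, 5 of 9 members, beside 63.1% of all entries. JUN was 390.6 ± 3.96 scaled fragments in T47D-Y and 1229 ± 24.5 in T47D-co (SD, n = 3), a log2 difference of 1.65 ± 0.06. JUND went from 940.7 ± 80.3 to 1809 ± 50.2 (0.95 ± 0.10) and FOSB from 10.59 ± 3.24 to 33.1 ± 5.30 (1.59 ± 0.39). The other entries at FOSB's locus were also called higher in T47D-co: ERCC1 (0.56 ± 0.06), PPP1R13L (0.41 ± 0.05) and CD3EAP (0.47 ± 0.10). Their part in FOSB's difference was not tested. FOSL2 was at 1470 ± 77.3 in T47D-Y and 541.3 ± 18.6 in T47D-co (-1.44 ± 0.05). JUN, JUND, FOSB and FOSL2 did not overlap between the lines, and neither did JUNB or the uncalled EGR1 and IER2. How many of all entries separate this way was not counted, so nothing further is read from it.

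JUNB in single libraries was 879.9, 816.8 and 788.1 in T47D-Y EtOH water against 600.4, 586.6 and 517.8 in T47D-co, -0.54 ± 0.11. All entries of its locus summed gave a small difference of the opposite sign, 0.10, so this direction rests on how fragments were divided. The merged entry with HOOK2 and PRDX2 differed by 0.11 ± 0.05 and RNASEH2A by 0.44 ± 0.06.

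With IFN and EtOH 5 of 9 members differed between the lines, beside 62.6% of entries: JUN (1.55 ± 0.06), JUND (0.91 ± 0.10) and EGR1 (1.08 ± 0.47) higher, FOSL2 (-1.82 ± 0.05) and JUNB (-0.46 ± 0.11) lower in T47D-co. EGR1 was near the threshold (adjusted p = 0.0489). Its call ended when any of 5 of the 6 libraries was left out, with adjusted p between 0.0734 and 0.234 (T47D-Y EtOH IFN replicates 2 and 3, T47D-co EtOH IFN replicates 1 to 3), and its lowest difference, 0.72, came without T47D-Y EtOH IFN replicate 3. It also ended with no filter, with a pseudocount of 0.5 and without the 4 libraries of low mitochondrial share (adjusted p = 0.0716, 0.0626 and 0.0702).

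After R5020 the lines' contrast had another shape. With water 6 of 9 members were called, beside 68.5% of entries, and with IFN 7 of 9, beside 68.3%. FOSL2's gap had nearly closed, at -0.18 ± 0.05 with water and -0.19 ± 0.05 with IFN, the latter not called on the deposited scale (-0.11). IER2, level between the lines in EtOH (0.10 ± 0.08), was lower in T47D-co at -0.69 ± 0.08 and -0.89 ± 0.08. JUN's gap was 2.23 ± 0.06 and 1.87 ± 0.06, JUND's 1.42 ± 0.10 and 1.04 ± 0.10, FOS's 0.97 ± 0.23 and 0.86 ± 0.23, and JUNB's -0.47 ± 0.11 and -0.58 ± 0.11. FOSB was called lower in T47D-co only with IFN (-1.07 ± 0.39, adjusted p = 0.0179), a call that ended without T47D-Y R5020 IFN replicate 3 (-0.73), without T47D-co R5020 IFN replicate 2 (-0.91) and with quantile normalization (-0.66), and its locus summed gave -0.05. FOSL2's call with water ended without T47D-Y R5020 water replicate 3 (-0.11, adjusted p = 0.0746), the highest of its group. EGR1, at -0.74 ± 0.47 with water, was called lower without T47D-co R5020 water replicate 1 (-1.21, adjusted p = 0.034). These comparisons use the same libraries as those of R5020 within each line and are not independent of them.

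**Figure D3:**
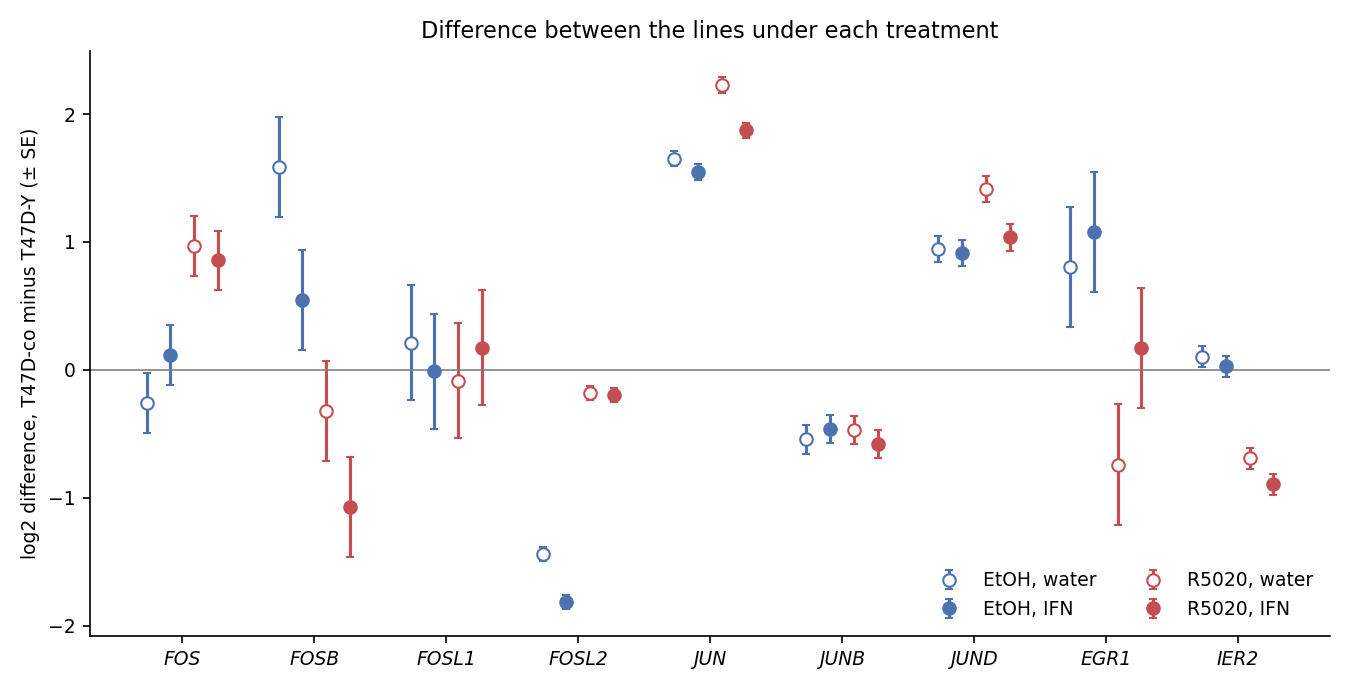
Log2 difference of T47D-co minus T47D-Y (points, with SE bars, n = 3 libraries per group) for the 9 members under EtOH (blue) or R5020 (red), with water (open) or IFN (filled). FOSL2 moves from -1.44 and -1.82 in EtOH to -0.18 and -0.19 in R5020, and JUN stays between 1.55 and 2.23.

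Levels of different genes were compared per kb of the longest protein-coding transcript (GENCODE v29), lengths of 1669 (FOSL1) to 6708 bases (FOSL2), which need not be the isoforms these cells use. On that scale FOSL2 was 92.5 ± 1.39% of the FOS-family sum in T47D-Y EtOH water (SD, n = 3) and 78.0 ± 3.93% in T47D-co EtOH water, where FOS made 8.32 ± 1.33% and FOSB 8.43 ± 0.945%. With R5020 in T47D-co FOSL2 took 87.9 ± 1.02% and FOSB 1.22 ± 0.707%, while the share of FOS was 8.27 ± 0.695%. The shares of FOSB rest on how fragments were divided at its locus. The FOS-family sum was 104 ± 5.08 scaled fragments per kb in T47D-co EtOH water, 232 ± 8.54 in R5020 water, 87.2 ± 3.72 in EtOH IFN and 221 ± 2.31 in R5020 IFN. T47D-Y groups stood at means of 237 to 250.

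In the JUN family, whose sum per kb exceeded that of the FOS family in each group, JUND led in T47D-co and shared the lead with JUNB in T47D-Y. Shares in T47D-Y EtOH water were 10.3 ± 0.748% JUN, 42.5 ± 0.344% JUNB and 47.1 ± 1.06% JUND, and in T47D-co EtOH water 21.3 ± 0.316%, 19.1 ± 1.35% and 59.6 ± 1.06%. JUNB held only 10.3 to 17% of the fragments at its locus. Its shares, the family sum and this order therefore rest on how fragments were divided there. The sum was 1070 ± 67.7 in T47D-Y EtOH water, 1630 ± 37.9 in T47D-co EtOH water and 2080 ± 144 in T47D-co R5020 water. EGR1 stood at 4.12 and IER2 at 228 scaled fragments per kb in T47D-Y EtOH water.

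**Figure D4:**
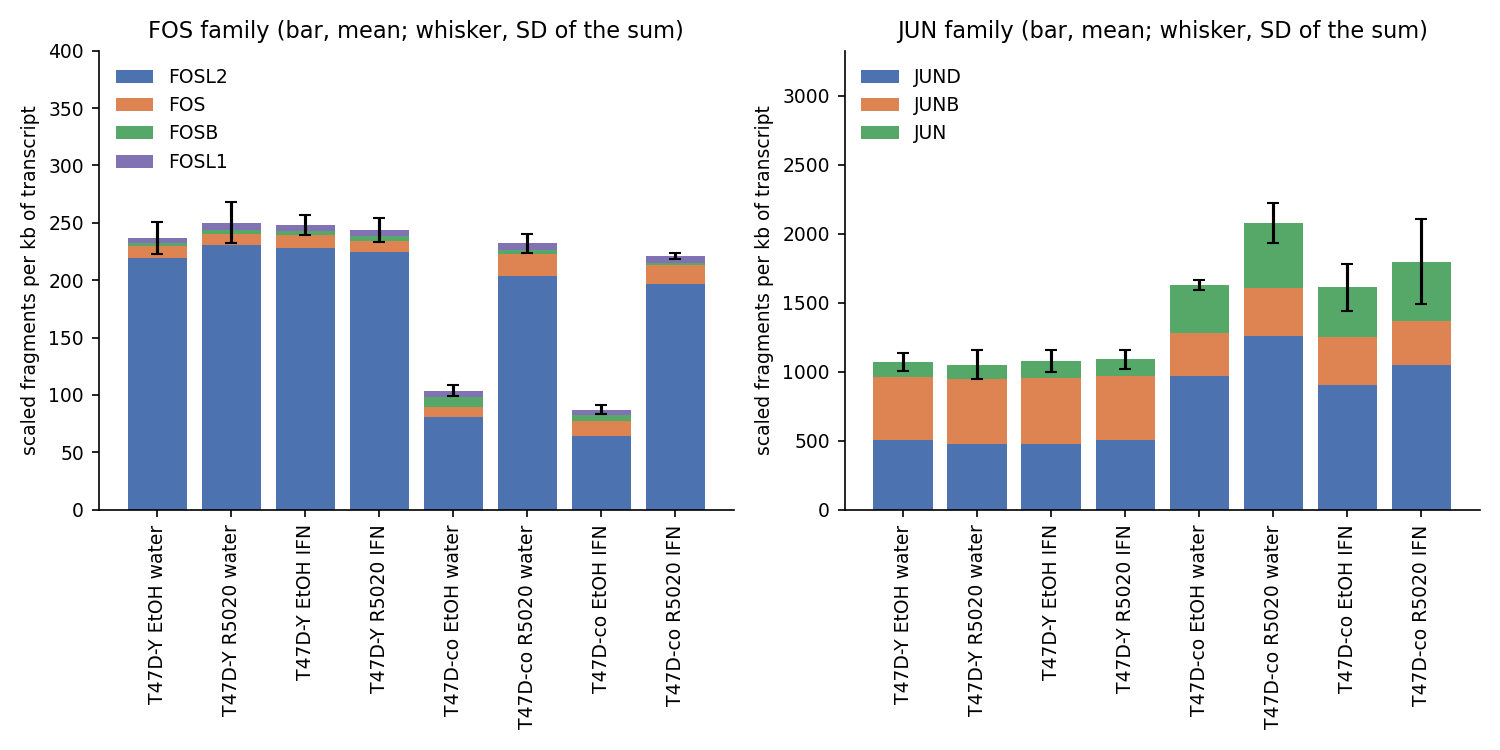
Mean scaled fragments per kb of transcript (linear axis from 0) of the FOS family (left) and the JUN family (right) in the 8 groups, stacked by gene, with whiskers for the SD of the family sum (n = 3). In T47D-co the FOS-family bar is 104 in EtOH water and 232 in R5020 water, with FOSL2 at 78.0% and 87.9% of it.

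IFN moved few members. In T47D-co with EtOH only FOSL2 was called, 1 of 9 beside 1.00% of all entries: it fell by 0.32 ± 0.05 (adjusted p = 0.00108), from a mean of 541.3 to 433.6 scaled fragments, with no overlap. In a fit of the compared groups alone this call ended (adjusted p = 0.0604). FOS had means of 18.69 and 26.57, without overlap, at 0.50 ± 0.23 (adjusted p = 0.539). In T47D-Y with EtOH limma called 0 of 9 (1 at an unadjusted p under 0.05, 0 with voom weights), beside 4.44%, JUN being closest at 0.16 ± 0.06 (adjusted p = 0.156). The line difference in IFN effect was called for FOSL2 alone (-0.38 ± 0.08, adjusted p = 0.0206, 1 of 9 beside 0.377%). That call ended without any of 5 libraries: T47D-Y EtOH water replicate 2 (-0.34), T47D-Y EtOH IFN replicate 2 (-0.35), T47D-co EtOH water replicate 1 (-0.36) or 3 (-0.36), and T47D-co EtOH IFN replicate 3 (-0.32). It also ended with voom weights (adjusted p = 0.0785), in a fit of the compared groups alone (0.0502) and on the deposited scale (-0.08).

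Under R5020, IFN gave 0 of 9 calls in T47D-co (limma; 2 at an unadjusted p under 0.05, 0 with voom weights), beside 11.3%. JUND was at -0.28 ± 0.10 (adjusted p = 0.084) and JUN at -0.14 ± 0.06 (adjusted p = 0.144), and both were called without T47D-co R5020 IFN replicate 3 (-0.44 and -0.21). In T47D-Y with R5020, 1 of 9 was called, beside 4.77%: JUN, higher by 0.22 ± 0.06 (adjusted p = 0.0382), at 333.3, 361.2 and 383.7 with water and 389, 431.5 and 431.7 with IFN. The call ended without any of 4 libraries, T47D-Y R5020 water replicate 1 (0.16) or 2 (0.22) and R5020 IFN replicate 2 (0.19) or 3 (0.19), without the 4 libraries of low mitochondrial share (0.12), with no filter, with voom weights and in a fit of the compared groups alone (adjusted p = 0.0531, 0.151 and 0.154). On the deposited scale, which was set separately for each line and IFN state, this difference is -0.27.

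Within groups, the JUN family varied together from library to library. As deviations from the group mean over 24 libraries, JUNB and JUND correlated at Pearson's r = 0.879 (Spearman's rho 0.854), JUN and JUNB at 0.845 (0.814) and JUN and JUND at 0.742 (0.658). Replicate 3 of T47D-co R5020 IFN was the highest of its group for all 3, at 1700, 693.3 and 2406 scaled fragments. IER2 followed at 0.602 with JUND (rho 0.563). FOS did not share this, with r between -0.252 and 0.133 to the other 8 members, and over the 36 pairs the median r was 0.156. The points share library depth and 2 degrees of freedom a group, so these are descriptions. The within-group SD on the log2 scale was 0.07 for FOSL2 and 0.0766 for JUN, 0.15 for JUND, and 0.492 to 0.622 for FOSB, FOSL1 and EGR1, the 3 of lowest level.

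**Figure D5:**
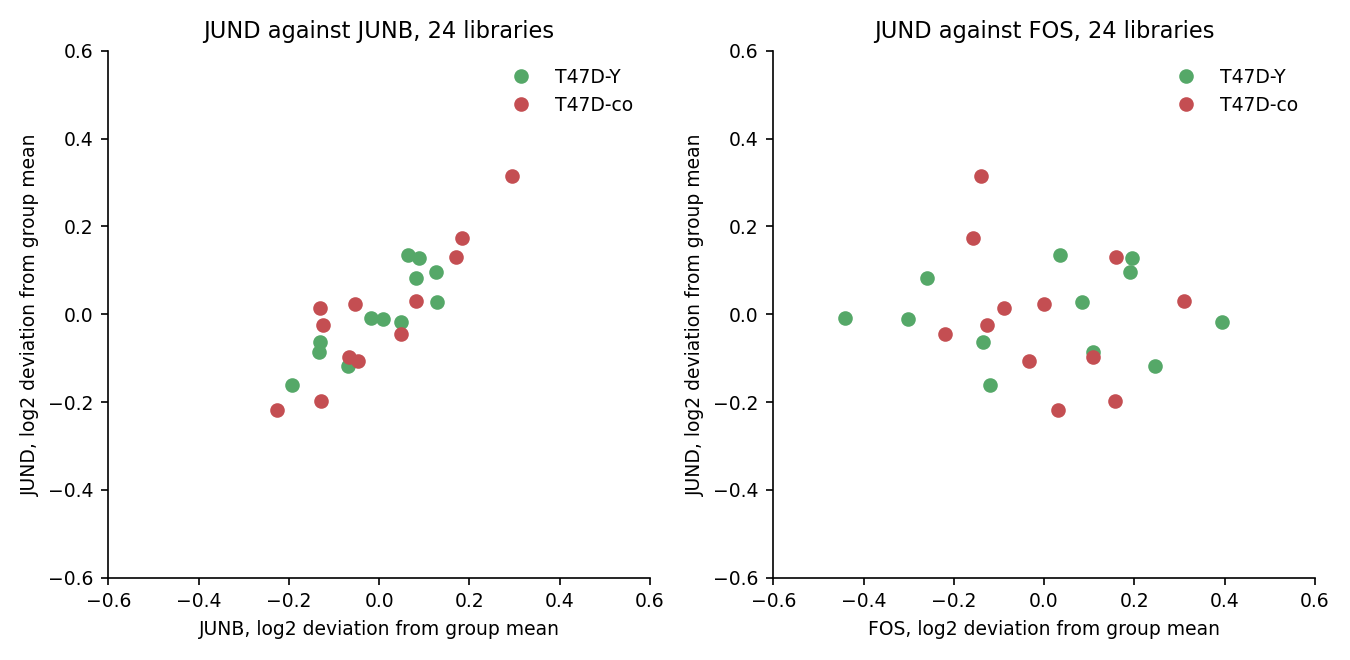
Log2 deviation of each library from its group mean for JUND against JUNB (left) and JUND against FOS (right), 24 libraries, T47D-Y green and T47D-co red, both axes from -0.6 to 0.6. The left points follow a rising line (r = 0.879), the right points show none (r = -0.0959).

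The patterns most like those of FOS and of JUN, the member whose group means ranged widest (2.23 log2 units), were sought among 11388 genes alone in their entry with a mean of at least 50 scaled fragments. Over the 8 group means FOS was followed most closely by ARPC5L (Pearson's r = 0.9732), UBE2D3P1 (0.97), DUT (0.9654) and NOMO3 (0.9589), whose own ranges were only 0.279 to 0.335 log2 units. JUN was followed by GRINA (0.9989), ALDOAP1 (0.9986), DUSP4 (0.9982) and CD2BP2 (0.9978). DUSP4, a phosphatase of MAP kinases, had a range of 5.31. UBE2D3P1 and ALDOAP1 are pseudogenes whose fragments may come from their parent genes.

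Other early genes showed a mixed picture with an upward lean. Of 35 on the list 28 were tested, and R5020 in T47D-co with water raised 17, lowered 5 and left 6 uncalled, with a median log2 difference of 0.336 against -0.0364 over all entries, of which 56.5% were called (5357 higher, 6039 lower). CYR61, a secreted matrix protein, rose from 836.5 ± 35.2 to 6237 ± 91.1 scaled fragments (2.90 ± 0.05). KLF4, a zinc-finger factor, went from 223.5 ± 5.99 to 1118 ± 64.5 (2.32 ± 0.11), and SIK1, a kinase, from 28.69 ± 3.63 to 153.1 ± 29.9 (2.37 ± 0.15). GEM, a small GTPase, fell by 2.38 ± 0.17. With IFN 16 rose and 6 fell, beside 58.2% of all entries called. In T47D-Y with water 1 of 28 was called, KLF4, at 0.61 ± 0.11 (adjusted p = 0.009), from 83.44 to 128.2, and with IFN none was (limma).

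Between the lines in EtOH and water 14 of the 28 were higher and 8 lower in T47D-co, beside 63.1% of all entries (5986 higher, 6745 lower). MYC was lower in T47D-co (33.86 ± 7.66 against 137.1 ± 6.83, -2.01 ± 0.17) and ID1 higher (183.6 ± 21.2 against 52.87 ± 5.68, 1.78 ± 0.16). With IFN in T47D-Y and EtOH 4 were called higher, GEM among them (0.60 ± 0.17), and 1 lower, beside 4.44% of all entries.

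The other bZIP proteins, which can pair with FOS or JUN proteins or compete with them, had 13 of 20 tested. In T47D-co with water R5020 raised 6 and lowered 4 (median -0.0869), beside the 56.5% of all entries called. MAFF rose by 1.15 ± 0.13 and ATF3, itself a stress-induced early gene, by 0.73 ± 0.08, while JDP2, a repressor of AP-1, fell by 0.85 ± 0.05. BATF, best known from lymphocytes, was at 80.69 ± 4.78 in T47D-Y EtOH water and 0.2379 ± 0.412 in T47D-co EtOH water. In T47D-Y R5020 called none of the 13 with water or with IFN (limma).

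Among the kinases and ternary complex factors that drive these genes, 20 of 27 were tested and R5020 in T47D-co with water raised 8 and lowered 6 (median 0.0544), beside 56.5% of all entries. RPS6KA5, encoding the histone kinase MSK1, rose from 1135 ± 4.34 to 4632 ± 142 (2.03 ± 0.05), ELK1, a ternary complex factor, by 0.52 ± 0.05, and RPS6KA1 by 0.48 ± 0.07. MAPK8, encoding the JUN kinase JNK1, was higher in T47D-co than in T47D-Y in EtOH and water (1807 ± 79.9 against 807.6 ± 48.0, 1.16 ± 0.06).

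Genes described elsewhere as AP-1 targets moved both ways: of 24 on the list 16 were tested, and R5020 in T47D-co with water raised 4 and lowered 5 (median -0.073), a share of calls close to the 56.5% of all entries. PLAUR, the urokinase receptor, rose by 2.14 ± 0.23, the cyclin gene CCND1 by 1.93 ± 0.04 (1737 ± 17.4 to 6626 ± 224) and HMOX1, haem oxygenase, by 1.26 ± 0.14. PLAU, encoding urokinase itself, fell from 22.98 ± 1.98 to 1.86 ± 1.31 scaled fragments. In T47D-Y EtOH water PLAU stood at 299.7 ± 10.1 and MET, a growth factor receptor, at 734.5 ± 45.0, against 17.97 ± 6.59 for MET in T47D-co. None of the 16 was called with R5020 in T47D-Y (limma).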

How the data were processed

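Reads from 24 libraries had been processed with TopHat2 2.0.12 and Cufflinks 2.2.1 on GRCh37 (hg19), per the submitters' processing notes, and the labels' protocols name an Illumina MiSeq. The deposited table holds a signal whose unit its header does not state. Whole multiples of 1 step per library made up 98.3 to 99.1% of values where an entry stood alone at its locus, and 62.3 to 65.1% over all entries (step 0.637 to 1.36, tolerance 0.05 of a step), so the values were read as estimated fragments over a size factor. Since not nearly all were whole, no count test was run. The factors had been set separately for each line and IFN state, and were replaced by median-of-ratios factors from 14209 genes averaging 50 fragments or more. Symbols listed more than once (10, with 25 entries) were not used.

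Groups came from the labels. The filter asked for 3 or more libraries with 10 or more scaled fragments, which 20162 entries passed, all 9 members among them. Their log2(scaled fragments + 1) values went into limma 3.58.1 (R 4.3.3) as 8 group means, with a variance trend, 16 residual and 8.046 prior degrees of freedom, 17 comparisons and two-sided p-values adjusted by Benjamini-Hochberg within each. Fold changes on this scale understate changes of scarce genes. On simulated data for this design the fit recovered 78 of 100 changes of 0.5 log2 units and 100 of 100 of 1 unit. These shares are not read as applying to the scarce FOS, FOSB, FOSL1 and EGR1. Their within-group SD was 0.247 to 0.622 log2 units, against 0.07 to 0.158 for the other members. Alternatives, among them factors from the trimmed mean of M values, are given at the end. Same-numbered replicates were not paired (mean correlation of deviations 0.00378).

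The members and lists were chosen with earlier results of these data known. Named are all members, up to 4 called genes of a list for R5020 in T47D-co with water and up to 2 in other comparisons (largest change, at least 50 scaled fragments in 1 group, no overlap), and the 4 genes most like FOS and JUN; some that the rule allows for further comparisons are not repeated. Promoters are RefSeq's (GRCh38.p14) and transcript lengths GENCODE v29's, used by symbol only.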

Additional observations from a re-analysis of the deposited data

Results flagged for a closer look

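The R5020 effect differed between the lines, by a test of the difference itself (T47D-co minus T47D-Y, log2), for 6 members with water: FOS (1.23), FOSB (-1.91), FOSL2 (1.26), JUN (0.58), JUND (0.47) and IER2 (-0.79). With IFN it differed for FOSB (-1.62), FOSL2 (1.62), JUN (0.32) and IER2 (-0.92). The IFN effect in EtOH differed between the lines for FOSL2 (-0.38). Each was called in the fit over all 20162 entries, in which 44.6, 46.0 and 0.377% of entries passed the same 3 tests.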

How the results depend on the processing

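The 47 called member results were recomputed under each alternative. Fits with 1 library left out aside, 509 of 531 values kept direction and call, 17 lost the call and 5 reversed. Calls that ended with 1 library left out are not in these counts and are given with each result above. The count of members called changed by more than 1.5 times in these cases. For R5020 in T47D-co with water it was 4 with a filter of 50 scaled fragments, which leaves FOS, FOSB, FOSL1 and EGR1 untested. For IFN in T47D-co with EtOH it was 2 on the deposited scale and 0 in a fit of the compared groups alone. For IFN in T47D-Y with EtOH it was 5 on the deposited scale. For IFN in T47D-co with R5020 it was 4 on that scale and 0 to 2 with 1 library left out. For IFN in T47D-Y with R5020 it was 6 on that scale, 0 with no filter, with voom weights, without the 4 libraries of low mitochondrial share or in a fit of the compared groups, and 0 to 1 with 1 library left out. For the line difference in R5020 effect with water it was 3 without those 4 libraries. For the line difference in IFN effect it was 0 with voom weights or the compared groups alone, and 0 to 1 with 1 library left out. Apart from the filter, the cause was not tested.

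The deposited scale moves the median entry by -0.179, -0.475, -0.187 and -0.481 for IFN (T47D-co and T47D-Y with EtOH, then with R5020), -0.234 and -0.211 between the lines with water, and 0.297 for the line difference in IFN effect. On it, IFN in T47D-Y with EtOH reverses to -0.42 for FOSL2, -0.32 for JUN, -0.42 for JUNB and -0.42 for IER2, and with R5020 to -0.27 for JUN, -0.38 for JUND and -0.29 for IER2, of which JUN with R5020 had been called. Summing all entries at its locus reverses JUNB's line difference to 0.10, 0.13, 0.078 and 0.0176 (EtOH water, EtOH IFN, R5020 water, R5020 IFN).

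Calls over all entries for IFN were 115 higher and 87 lower (T47D-co, EtOH), 505 and 390 (T47D-Y, EtOH), 1526 and 743 (T47D-co, R5020), and 618 and 343 (T47D-Y, R5020). On the deposited scale they were 125 and 8315, 115 and 14594, 162 and 7043, and 101 and 14682. Between the lines with water they went from 5986 and 6745 to 3613 and 9841 (EtOH) and from 6441 and 7375 to 4500 and 9833 (R5020), and for the line difference in IFN effect from 13 and 63 to 9453 and 73. Quantile normalization, which moves the median of the line differences with R5020 by 0.124 and 0.114, gave 710 and 696 for IFN in T47D-co with R5020, 430 and 467 and then 442 and 458 for IFN in T47D-Y (EtOH, R5020), and 49 and 18 for the R5020 by IFN interaction in T47D-co, where the fit had 176 and 27. Without the 4 libraries that interaction called 63 entries, R5020 in T47D-Y with water 16 in place of 44, and IFN 128 (T47D-co, EtOH), 514 and 325 (T47D-Y, EtOH and R5020). Voom weights called 35 in place of 60 for R5020 in T47D-Y with IFN. A fit with a replicate block kept the call of all 153 member results, 7 members called for R5020 in T47D-co with water among them; same-numbered libraries deviated together no more than others did, and 9 of 24 were closest to their own number.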
